A study of Mus musculus with 12 samples.

Results

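The PAR bZIP transcription factor genes Dbp, Tef and Hlf, the gene of their repressor counterpart Nfil3, and Usp2, a rhythmic deubiquitinase gene, form an output arm of the circadian clock. These 5 genes were chosen by symbol, and all 5 were found among the 41388 genes counted in each library. The 12 libraries of brain RNA came from 8 mice of 20 months, whose alleles and transgene the labels give as Bmal fl/fl; ALDH1L1-CreERT2, on a C57BL\6 background. Astrocytes came from 4 KO and 4 WT mice, and flowthrough was sequenced for 2 of those KO mice and 2 of those WT mice. KO means Cre+ and labelled knockout, and WT means Cre- and labelled wildtype. Cre-positive and Cre-negative mice alike had the floxed alleles and were gavaged with tamoxifen at 2 months of age (2 mg a day over 5 days). An Aldh1l1 promoter, an astrocyte promoter, drove CreERT2, so Bmal1 stays intact by design in cells without it. Astrocytes were captured from collagenase-digested brain on magnetic beads against the surface antigen ACSA-2, and flowthrough is what the beads did not hold. Mice were kept on a cycle of 12 h light and 12 h dark, and the hour at which brains were taken is not given in the sources used here.

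BMAL1, paired with CLOCK, switches on Dbp, Tef, Hlf, Usp2 and other genes through E-box sites. DBP, TEF and HLF bind D-box sites as activators, whereas NFIL3 (also called E4BP4) binds the same sites as a repressor, and its own gene is held down by REV-ERB through ROR elements. USP2 removes ubiquitin from clock proteins, among them PER1. Mice lacking all of the PAR bZIP factors have seizures and low brain levels of the pyridoxal kinase gene Pdxk.

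Dbp lay on chromosome 7 at 45705088 to 45710155 (plus strand, ENSMUSG00000059824) and Tef on chromosome 15 at 81802421 to 81826861 (plus strand, ENSMUSG00000022389). Hlf lay on chromosome 11 at 90336536 to 90390895 (minus strand, ENSMUSG00000003949) and Nfil3 on chromosome 13 at 52967209 to 52981073 (minus strand, ENSMUSG00000056749). Usp2 lay on chromosome 9 at 44067021 to 44095627 (plus strand, ENSMUSG00000032010). These are the GRCm38 coordinates of the deposited files, whose counts sum the reads over all exons of a gene. The RefSeq promoter windows of GRCm38.p6, which run from 250 bases before to 50 bases after a start site, were searched on both strands for an E-box (CACGTG), D-boxes (TTATGTAA and TTACGTAA) and the core of the ROR element (AGGTCA). All 5 genes matched, with 6 windows. The E-box letters were in both windows of Tef, at position -127 before one start site and at -138 before the other, which lies at the start of exon interval 5 of 10. They occur in 7.15% of all 32851 windows. The ROR element core stood on the opposite strand of the Nfil3 window at -12, and occurs in 16.3% of all windows. The D-boxes (0.938% and 0.119% of all windows) were in none of the 6, and the windows of Dbp, Hlf and Usp2 held none of these letters. The Usp2 window belongs to a start site 30 bases from the start of exon interval 6 of 18. The start of the Usp2 gene at 44067021 was therefore not searched. The 3 windows with a match are printed on the gene's strand, with the matched letters in capitals.

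Tef chr15:81802423-81802722, plus strand, E-box in capitals: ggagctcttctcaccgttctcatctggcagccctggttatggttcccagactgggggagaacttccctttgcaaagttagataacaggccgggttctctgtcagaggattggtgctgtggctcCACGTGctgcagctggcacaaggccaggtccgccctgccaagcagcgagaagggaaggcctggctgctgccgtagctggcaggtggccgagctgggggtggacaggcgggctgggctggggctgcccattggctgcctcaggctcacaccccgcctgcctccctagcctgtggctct

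Tef chr15:81811164-81811463, plus strand, E-box in capitals: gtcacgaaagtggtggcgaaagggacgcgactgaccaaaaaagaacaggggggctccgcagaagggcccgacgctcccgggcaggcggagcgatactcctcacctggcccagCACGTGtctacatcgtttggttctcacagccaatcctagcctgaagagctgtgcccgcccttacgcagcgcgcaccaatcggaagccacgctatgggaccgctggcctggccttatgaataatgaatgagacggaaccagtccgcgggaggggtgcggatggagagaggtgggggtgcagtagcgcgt

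Nfil3 chr13:52980990-52981289, minus strand, reverse complement of the ROR element core in capitals: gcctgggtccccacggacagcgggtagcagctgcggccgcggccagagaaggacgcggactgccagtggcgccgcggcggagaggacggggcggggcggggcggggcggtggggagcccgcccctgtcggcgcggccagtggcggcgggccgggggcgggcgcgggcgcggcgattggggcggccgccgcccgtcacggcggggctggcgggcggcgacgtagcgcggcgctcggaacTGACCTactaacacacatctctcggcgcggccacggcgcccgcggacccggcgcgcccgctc

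KO flowthrough was deeper than all astrocyte libraries: KO astrocyte libraries held 44.7 to 49.4 M (1000000) counts, WT astrocyte libraries 38.7 to 50.1 M, KO flowthrough libraries 51.2 to 51.6 M and WT flowthrough libraries 45.3 to 51.2 M. KO 73 and WT 78 were the only libraries with Xist reads in number (2411 and 1133), and the other 10 had 0 to 10. KO 73 also stood apart in its cell type markers, with values given beside the results. Arntl, the floxed gene, was not lower in libraries labelled KO: its CPM was 9.50 to 13.3 in KO astrocytes and 5.38 to 8.80 in WT astrocytes, and the count sums all its exons. Which exons were floxed is not given in the labels, so the count checks no deletion, and KO and WT below are what the libraries are labelled.

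The level per length had 1 order in nearly every library. On the RPKM scale (CPM per kilobase of exon, where CPM is counts per 1000000, both TMM-scaled), Usp2 was highest, then Tef, Hlf, Dbp and Nfil3, in 11 of 12 libraries. In WT flowthrough 64, Nfil3 (3.30 RPKM) stood above Dbp (2.67). Among the members, Usp2 averaged 21.9 ± 4.92 RPKM in KO astrocytes and 27.1 ± 5.84 RPKM in WT astrocytes (SD, n = 4 each), above 88.8% and 90.5% of the 20997 genes tested. Tef averaged 12.7 ± 2.63 RPKM in KO astrocytes and 16.1 ± 1.65 in WT astrocytes. Hlf averaged 11.2 ± 2.77 RPKM in KO astrocytes and 13.9 ± 2.32 in WT astrocytes. The ranges of Tef and Hlf overlapped between mice, but Tef was above Hlf within each of the 12 libraries. Dbp averaged 2.52 ± 0.518 RPKM in KO astrocytes and 3.82 ± 0.229 in WT astrocytes, and Nfil3 1.80 ± 0.547 in KO astrocytes and 1.43 ± 0.344 in WT astrocytes. Dbp and Nfil3 were thus near the middle of all genes, above 55.8% and 49.4% of them in KO astrocytes and above 64.0% and 44.8% in WT astrocytes. Of the summed PAR bZIP level, Dbp made up a mean of 9.96% in KO astrocytes and 11.4% in WT astrocytes, and Tef 48.0% and 47.6%.

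**Figure D1:**
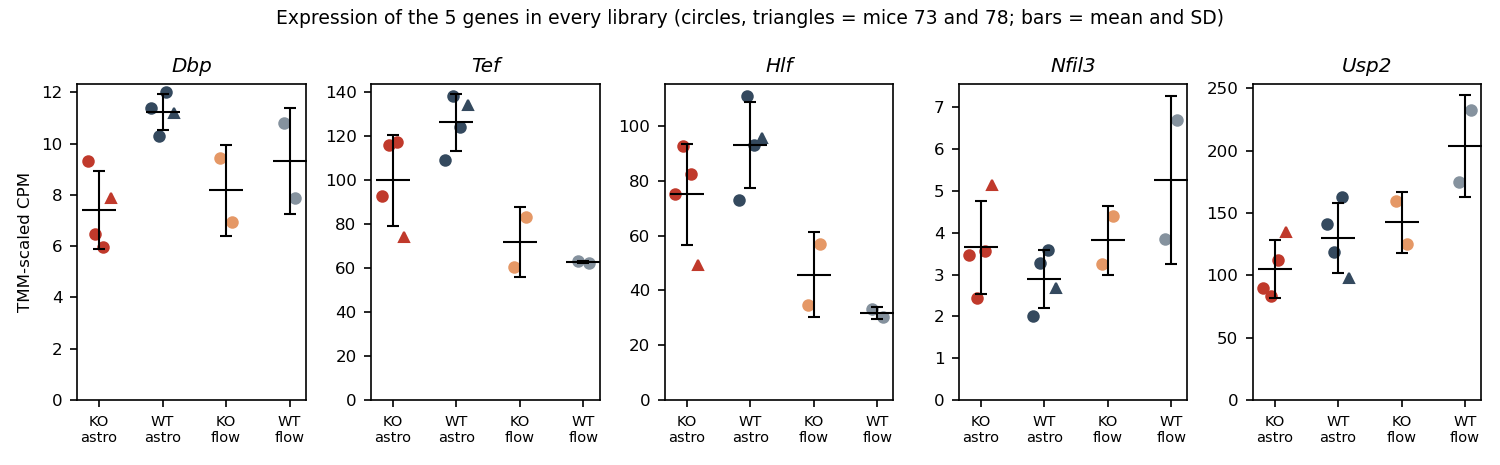
TMM-scaled CPM (vertical axis) of each of the 5 genes in every library, by group along the horizontal axis, with the mean and SD as bars; triangles are mice 73 and 78. The 4 KO astrocyte libraries of Dbp sit between 5.95 and 9.34 CPM, below all 4 WT astrocyte libraries at 10.3 to 12.0 CPM, while the astrocyte groups of the other genes overlap.

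The first comparison asks how the output genes differ between KO and WT astrocytes. None of the 5 passed over all genes in edgeR (adjusted p under 0.05), DESeq2 or limma-voom, where 0.232% of 18527 genes passed in edgeR. At an unadjusted p under 0.05 Dbp was the 1 of the 5, where 5.37% of all genes were. Dbp, Tef, Hlf and Usp2 had lower means in KO astrocytes and Nfil3 a higher one, and the groups were apart for Dbp alone. The median log2 fold change of the 5 was -0.30, against 0.00 over all genes tested. In bulk RNA a smaller share of cells that express a gene and less RNA per cell cannot be told apart.

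Dbp, known for a daily rhythm of high amplitude, had 9.34, 6.47, 5.95 and 7.88 CPM in KO astrocytes 132, 60, 62 and 73, against 11.4, 10.3, 12.0 and 11.2 CPM in WT astrocytes 56, 57, 64 and 78. Every KO library was below every WT library. Groups that do not overlap in this direction were found for 2.27% of all genes tested. The WT libraries lay close together, with a coefficient of variation of 6.01%, against 20.6% in KO. The counts behind these values were 251 to 442 in KO and 353 to 547 in WT, and counting alone gives an error of 6.31% at 251 counts. The log2 fold change was -0.59 ± 0.18 (SE), a fold of 0.663 with a 95% interval of 0.504 to 0.872, and did not pass (unadjusted p = 0.00761 from edgeR; adjusted p = 0.498). A smaller p was found for 1.52% of genes. Of Dbp's 2945 exon bases, 491 (16.7%) overlap exons of Sphk2, a sphingosine kinase gene on the opposite strand, and whether reads were counted by strand is not given in the sources used here. Sphk2 had the other direction, with a log2 fold change of 0.36 ± 0.15 (adjusted p = 0.888).

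Tef encodes the thyrotroph embryonic factor, and Hlf the hepatic leukemia factor. Tef had 92.7, 116, 117 and 73.9 CPM in KO astrocytes 132, 60, 62 and 73, against 109, 138, 124 and 134 CPM in WT astrocytes 56, 57, 64 and 78. KO 60 and KO 62 lay within the WT range, so the groups overlapped (log2 fold change -0.33 ± 0.16, adjusted p = 0.960). Hlf had 75.2, 92.7, 82.6 and 49.4 CPM in KO astrocytes 132, 60, 62 and 73, against 72.9, 111, 93.0 and 95.7 CPM in WT astrocytes 56, 57, 64 and 78. Only KO 73 was below all WT libraries for Hlf, and the log2 fold change was -0.30 ± 0.20 (adjusted p = 0.989). KO 73 was the lowest of the 8 astrocyte libraries for both genes.

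Nfil3 had 3.47, 2.44, 3.55 and 5.13 CPM in KO astrocytes 132, 60, 62 and 73, against 2.01, 3.28, 3.58 and 2.68 CPM in WT astrocytes 56, 57, 64 and 78. KO 73 alone stood above the WT range. The log2 fold change was 0.35 ± 0.28 (adjusted p = 0.995). Nfil3 was the thinnest measurement of the 5, with 96 to 274 counts in the astrocyte libraries. Usp2 had 90.1, 83.1, 112 and 135 CPM in KO astrocytes 132, 60, 62 and 73, against 141, 119, 163 and 98.1 CPM in WT astrocytes 56, 57, 64 and 78. KO 132 and KO 60 were below the WT range, whereas KO 73, highest of the KO libraries, lay inside it. Its log2 fold change was -0.30 ± 0.20 (adjusted p = 0.989). Rnf26, on the opposite strand, shares 4.16% of the exon bases of Usp2, and Gm17597 shares 2.45% of those of Tef.

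Cell type markers also differed among the astrocyte libraries. KO 73 had the lowest summed level of 10 astrocyte markers, 10600 CPM, against 17800 to 22000 CPM in the other KO astrocyte libraries and 16100 to 20300 CPM in WT. It also had the highest summed level of 10 microglia markers, 2920 CPM, against 627 to 1130 CPM in the other KO astrocyte libraries and 610 to 1230 CPM in WT. Its sum of 10 neuron markers was the lowest, 1350 CPM, against 2520 to 3010 CPM in the other KO libraries and 1760 (WT 56) to 3080 CPM in WT. Its sum of 10 immediate early genes, which cell dissociation is known to induce, was the highest, 430 CPM. That sum was 259, 179 and 251 CPM in KO 132, 60 and 62. In WT 56, 57, 64 and 78 it was 339, 205, 379 and 160 CPM. Usp2 had the same order of libraries within WT, and was likewise lowest in KO 60 and highest in KO 73 within KO. No gene of these lists was at 0. Of the 10 microglia markers 10 were above WT in KO astrocytes (median log2 fold change 0.54), as were 10 of 10 oligodendrocyte markers (0.78, with sums of 24200 to 38400 CPM in KO and 20300 to 26600 in WT), while 8 of 10 astrocyte markers were below (-0.23). Above WT were also 8 of 10 endothelial markers (0.23), 4 of 10 neuron markers (-0.10) and 5 of 10 immediate early genes (0.02). None of the genes in these lists passed in edgeR. At an unadjusted p under 0.05 from edgeR there were 5 oligodendrocyte markers and 1 astrocyte marker, where 5.37% of all genes were. There were 0 from the microglia, endothelial, neuron and immediate early gene lists. The part of these lists in the results was not tested beyond the fits given next. Without KO 73 the log2 fold change was -0.63 for Dbp (adjusted p = 0.434), -0.45 for Usp2 (0.653), -0.21 for Tef (0.827), -0.15 for Hlf (0.913) and 0.13 for Nfil3 (0.964). With the mean of the microglia, oligodendrocyte and endothelial markers as a covariate it was -0.68 for Dbp (adjusted p = 0.132), -0.54 for Usp2 (0.0645), -0.17 for Tef (0.530), -0.10 for Hlf (0.778) and 0.09 for Nfil3 (0.920). Astrocyte markers, neuron markers and immediate early genes were not in this covariate. In both fits the differences of Dbp and Usp2 were larger than with all 8 libraries and no covariate, and those of Tef, Hlf and Nfil3 were smaller. Without KO 73 and WT 78 together, the libraries with Xist reads, Dbp had -0.63 (adjusted p = 0.383), Usp2 -0.56 (0.305), Tef -0.18 (0.746), Hlf -0.14 (0.832) and Nfil3 0.10 (0.944).

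**Figure D2:**
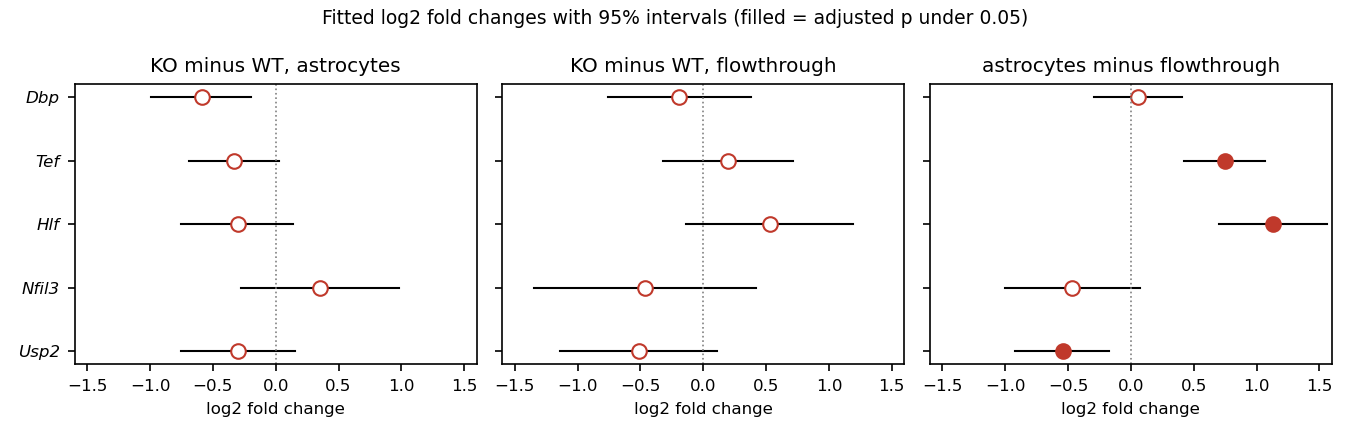
Fitted log2 fold changes (horizontal axis) of the 5 genes with 95% intervals, for KO minus WT in astrocytes, KO minus WT in flowthrough and astrocytes minus flowthrough; filled points passed at an adjusted p under 0.05. In astrocytes the interval of Dbp, -0.99 to -0.20, is the one of the 5 that leaves out 0, and in the comparison of fractions Hlf (1.13), Tef (0.75) and Usp2 (-0.54) passed.

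Other clock genes were set beside the 5 by 2 lists. Of 11 other E-box driven clock genes, 10 were below WT in KO astrocytes, 0 passed, and the median log2 fold change was -0.45, against 0.00 over all genes; at an unadjusted p under 0.05 from edgeR 6 of 11 were lower, where 2.85% of all genes were. The smallest p were those of Nr1d2 (-0.81 ± 0.15, adjusted p = 0.0868), Nr1d1 (-0.79 ± 0.15, adjusted p = 0.110), Per2 (-1.01 ± 0.20, adjusted p = 0.123) and Per3 (-1.21 ± 0.32, adjusted p = 0.355). Nr1d1 and Nr1d2 are the REV-ERB genes, and the PER proteins repress BMAL1 with CLOCK. The fitted size of Dbp was thus smaller than that of these 4 genes; differences between genes were not tested. The 4 ROR element driven genes, the class to which Nfil3 belongs, were all above WT with a median of 0.60, 0 passed, and 4 of 4 were higher at an unadjusted p under 0.05 from edgeR, where 2.52% of all genes were. They were Npas2 (1.06 ± 0.26), Arntl (0.66 ± 0.19), Cry1 (0.54 ± 0.20) and Clock (0.47 ± 0.18), with adjusted p of 0.302 to 0.782, against 0.35 ± 0.28 for Nfil3.

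**Figure D3:**
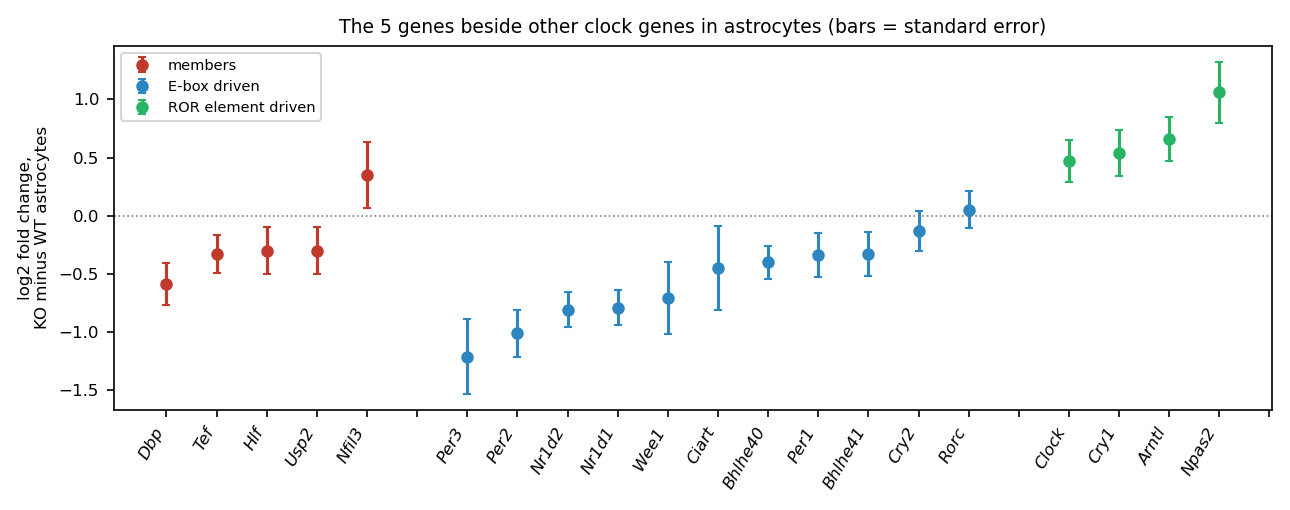
Log2 fold change of KO minus WT astrocytes (vertical axis, bars are SE) for the 5 genes, 11 other E-box driven clock genes and 4 ROR element driven clock genes. Dbp at -0.59 lies among the E-box genes, of which 10 of 11 are below 0, and Nfil3 at 0.35 lies below the 4 ROR element genes, all at 0.47 or above.

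Genes reported as targets of D-boxes or of PAR bZIP factors, mostly from mouse liver, showed no common direction. Of 13 listed, 12 were tested in KO astrocytes, 6 above and 6 below WT, and 0 passed (median -0.14). At an unadjusted p under 0.05 from edgeR 1 was higher and 3 were lower, where 2.52% and 2.85% of all genes were. The 4 smallest p belonged to Nr1d1, Per2, Per3 and Cry1, which are clock genes and also in the lists above. Pdxk, pyridoxal kinase, had 214 ± 50.3 CPM in KO astrocytes and 207 ± 36.6 CPM in WT astrocytes (SD, n = 4 each). Its log2 fold change was 0.05 ± 0.19 (adjusted p = 0.996). Its 95% interval ran from -0.38 to 0.49. Alas1, the first enzyme of heme synthesis, had 0.10 ± 0.16. The C/EBP genes, bZIP relatives that bind similar sites, had 1 of 5 tested members above WT and a median of -0.30, with Ddit3 (-0.27 ± 0.14), Cebpa (-0.34 ± 0.34), Cebpg (0.12 ± 0.17) and Cebpb (-0.31 ± 0.47) first by p and 0 passing in edgeR, adjusted or not. Genes that set the stability of clock proteins, as USP2 does, had 3 of 7 above WT, a median of -0.03 and 0 passing in edgeR, adjusted or not; the first by p were Csnk1d (0.32 ± 0.16), Csnk1e (-0.11 ± 0.11), Fbxl21 (0.17 ± 0.19) and Btrc (0.11 ± 0.13).

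The activators and the repressor can be set against each other within a library, which needs no scaling between libraries. The summed RPKM of Dbp, Tef and Hlf was 15.3, 25.6, 16.7 and 7.70 times that of Nfil3 in KO astrocytes 132, 60, 62 and 73, against 29.0, 23.3, 19.1 and 26.6 times in WT astrocytes 56, 57, 64 and 78. KO 60 lay within the WT range, and the other KO libraries below it. For Dbp alone the ratio to Nfil3 was 1.85, 1.82, 1.15 and 1.06 in KO astrocytes and 3.92, 2.17, 2.30 and 2.88 in WT astrocytes, in the same order of mice, with no overlap. In flowthrough the summed ratio was 10 in KO 132 and 9.86 in KO 60, against 8.76 in WT 56 and 4.58 in WT 64. These ratios are given with no test, since they score genes chosen with results known. Dbp was already apart between the astrocyte groups, and Nfil3 had the higher mean in KO astrocytes. The lack of overlap in the Dbp ratio is therefore no separate result. The share of all gene ratios with groups that do not overlap was not computed.

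**Figure D4:**
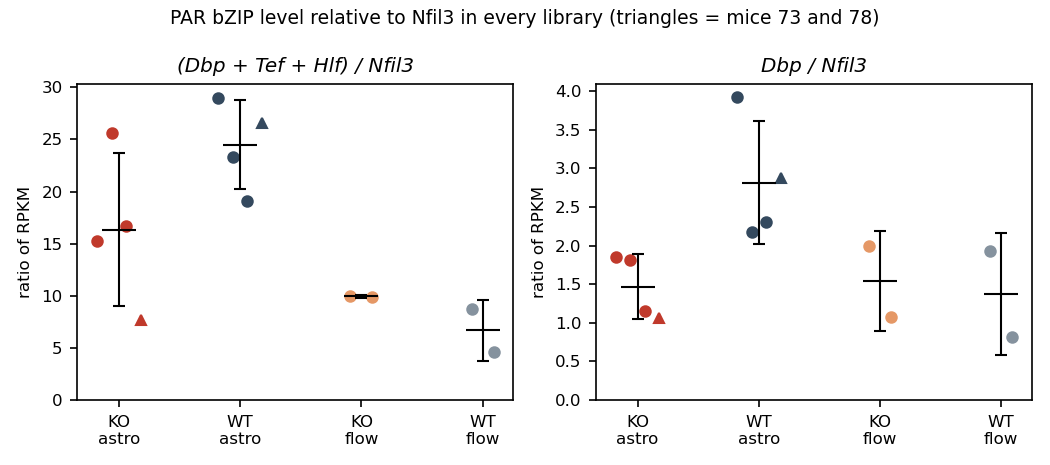
Ratio of RPKM (vertical axis) of the summed PAR bZIP genes, left, and of Dbp, right, to Nfil3 in every library by group, with mean and SD; triangles are mice 73 and 78. The Dbp ratio is 1.06 to 1.85 in KO astrocytes and 2.17 to 3.92 in WT astrocytes, and the summed ratio of KO 60, 25.6, lies within the WT astrocyte range.

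The second comparison asks whether the cells left after capture differed between the labels. None of the 5 passed in edgeR, DESeq2 or limma-voom (0.00476% of 20997 genes passed in edgeR), and 0 had an unadjusted p under 0.05 from edgeR, where 4.63% of all genes did. Dbp had 9.43 and 6.93 CPM in KO flowthrough 132 and 60, against 10.8 and 7.87 CPM in WT flowthrough 56 and 64 (log2 fold change -0.19 ± 0.26). Usp2 had 160 and 125 CPM in KO flowthrough, against 175 and 233 CPM in WT flowthrough (-0.51 ± 0.28). Both KO libraries of Usp2 were below both WT libraries. Hlf had 34.7 and 56.8 CPM in KO flowthrough, against 33.3 and 30.2 CPM in WT flowthrough (0.53 ± 0.30), with both KO libraries above. With 2 libraries each, 33.6% of all genes tested had groups that did not overlap. Tef had 60.5 and 83.0 CPM in KO flowthrough, against 63.0 and 62.3 CPM in WT flowthrough (0.20 ± 0.23). Nfil3 had 3.24 and 4.40 CPM in KO flowthrough, against 3.85 and 6.69 CPM in WT flowthrough (-0.46 ± 0.40). The groups of Dbp, Tef and Nfil3 overlapped, and the adjusted p of all 5 was 1 when rounded.

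KO flowthrough 60, the library with the most Hlf and Tef RNA in flowthrough, also held the most astrocyte marker RNA, a summed 7610 CPM, against 3730 CPM in KO 132 and 4180 and 2860 CPM in WT 56 and 64. It was likewise highest for neuron markers, 1260 CPM, against 588 in KO 132 and 580 and 451 in WT 56 and 64. So it was for oligodendrocyte markers, 29800 CPM, against 15300 in KO 132 and 12300 and 14100 in WT 56 and 64. Its microglia sum was the lowest (11500 CPM), and its endothelial sum (1430 CPM) was below that of KO 132 (1700 CPM). All 10 astrocyte markers were above WT in KO flowthrough (median log2 fold change 0.44), as were 10 of 10 neuron markers (0.92), 10 of 10 endothelial markers (0.58), 9 of 10 oligodendrocyte markers (0.24) and 7 of 10 microglia markers (0.02). No marker was at 0 and none passed in edgeR. At an unadjusted p under 0.05 from edgeR there were 2 astrocyte, 3 neuron, 1 oligodendrocyte, 0 endothelial and 0 microglia markers, where 4.63% of all genes were. The part of the markers in the results was not tested beyond the covariate fit. That covariate held no astrocyte or neuron markers, so the fit cannot address the differences in those 2 lists. Without KO flowthrough 60 the log2 fold change of Hlf was 0.13 and that of Tef -0.05, and without KO flowthrough 132 they were 0.84 and 0.41. Nfil3 had -0.81 without WT flowthrough 56, -0.70 without KO flowthrough 60, -0.26 without KO flowthrough 132 and -0.01 without WT flowthrough 64. Usp2 had -0.71 without WT flowthrough 56 and -0.29 without WT flowthrough 64. With the covariate of microglia, oligodendrocyte and endothelial markers the values were 0.73 for Hlf (adjusted p = 0.150), -0.72 for Usp2 (0.127), 0.35 for Tef (0.316), -0.63 for Nfil3 (0.414) and -0.27 for Dbp (0.636). The difference between the fractions in the KO minus WT change was tested by an interaction, and none of the 5 passed; 0 of 20997 genes passed in edgeR (0% of genes), 828 (3.94%) had an unadjusted p under 0.05, Hlf among them, and DESeq2 called 8. Hlf had an interaction of -0.84 ± 0.37 on the log2 scale (95% interval -1.65 to -0.03, adjusted p = 0.934), Tef -0.54 ± 0.29, Dbp -0.41 ± 0.32, Usp2 0.21 ± 0.35 and Nfil3 0.80 ± 0.50. Leaving out 1 library moved each of them. The interaction of Hlf ranged from -1.15 (without KO flowthrough 132) to -0.43 (without KO flowthrough 60), and that of Tef from -0.75 to -0.28 without the same libraries. That of Dbp ranged from -0.66 (without WT flowthrough 56) to -0.17 (without KO flowthrough 132), and that of Nfil3 from 0.36 (without WT flowthrough 64) to 1.14 (without WT flowthrough 56). Markers moved too: the median interaction was -0.92 for neuron markers and -0.63 for astrocyte markers, with 10 of 10 below 0 in each, -0.34 for endothelial markers (9 of 10 below 0), 0.48 for oligodendrocyte markers (8 of 10 above 0) and 0.47 for microglia markers (10 of 10 above 0).

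The third comparison asks in which fraction the 5 genes are expressed. Hlf and Tef were higher in astrocytes, Usp2 was lower, and Dbp and Nfil3 did not pass; 49.2% of the 20997 genes passed in this comparison (24.8% higher and 24.4% lower). Hlf averaged 75.0 ± 18.5 CPM in KO astrocytes and 93.1 ± 15.5 CPM in WT astrocytes (SD, n = 4 each), against 45.8 ± 15.7 CPM in KO flowthrough and 31.7 ± 2.19 CPM in WT flowthrough (n = 2 each). Its fold was 2.19 (95% interval 1.63 to 2.95; adjusted p = 7.07e-04). Tef averaged 100 ± 20.7 CPM in KO astrocytes and 126 ± 13.0 CPM in WT astrocytes, against 71.8 ± 15.9 CPM in KO flowthrough and 62.7 ± 0.492 CPM in WT flowthrough. Its fold was 1.68 (95% interval 1.34 to 2.10; adjusted p = 0.00166). Usp2 averaged 105 ± 23.6 CPM in KO astrocytes and 130 ± 28.1 CPM in WT astrocytes, against 143 ± 24.6 CPM in KO flowthrough and 204 ± 41.5 CPM in WT flowthrough. Its fold was 0.686 (95% interval 0.529 to 0.888; adjusted p = 0.0203). The fractions overlapped in each of the 5 genes when all 12 libraries were set side by side, where 29.2% of all genes had fractions that did not.

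The 4 mice that gave both fractions show the same differences animal by animal. The astrocyte to flowthrough ratio of Hlf was 2.17 in KO 132 and 1.63 in KO 60, against 2.19 in WT 56 and 3.08 in WT 64. That of Tef was 1.53 and 1.4 in the KO mice, and 1.73 and 1.99 in the WT mice. That of Usp2 was 0.563 and 0.665 in the KO mice, and 0.806 and 0.700 in the WT mice. Hlf and Tef were above 1 in 4 of 4 mice, and Usp2 in 0 of 4. Dbp had 0.990 and 0.934 in the KO mice, and 1.06 and 1.52 in the WT mice, a log2 difference of 0.06 ± 0.16 (95% interval -0.29 to 0.41, adjusted p = 0.768). Nfil3 had 1.07 and 0.555 in the KO mice, and 0.522 and 0.535 in the WT mice, a log2 difference of -0.47 ± 0.24 (adjusted p = 0.134). With the mouse as a block, the log2 difference of Nfil3 was -0.65 (adjusted p = 0.0373), lower in astrocytes.

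**Figure D5:**
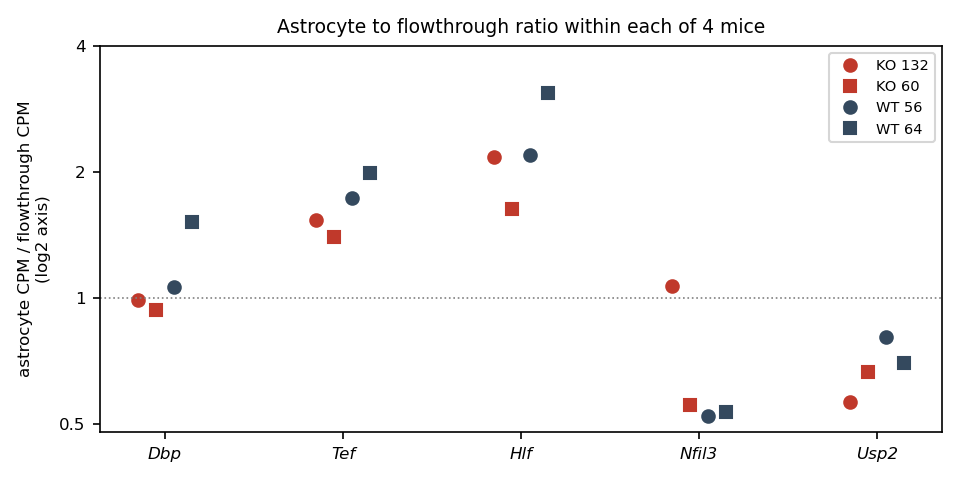
Astrocyte CPM divided by flowthrough CPM of the same mouse (vertical axis, log2 scale) for the 5 genes, in 2 KO mice and 2 WT mice. Hlf (1.63 to 3.08) and Tef (1.4 to 1.99) lie above 1 in all 4 mice and Usp2 (0.563 to 0.806) below 1 in all 4, while Dbp lies at 0.934 to 1.52.

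Cell type markers checked the fractions. All 10 astrocyte markers were higher in astrocytes (median log2 difference 1.97), but so were 10 of 10 neuron markers (1.65) and 5 of 10 oligodendrocyte markers (median 0.99), so RNA of neurons and oligodendrocytes was also richer in the captured fraction. All 10 microglia markers (median -3.57) and all 10 endothelial markers (-1.14) were lower, and no marker was at 0 in any group. Immediate early genes, which cell dissociation is known to induce, were lower in astrocytes in 10 of 10 cases (median -1.99), at a summed 160 to 430 CPM in astrocytes and 924 to 1370 CPM in flowthrough. With the mean of the microglia, oligodendrocyte and endothelial markers as a covariate, the log2 difference was 0.33 for Hlf (adjusted p = 0.527), 0.13 for Tef (0.760) and 0.19 for Usp2 (0.686), and none passed. Of these lists 2 differ between the fractions in all of their markers. Neuron markers, of which 10 of 10 were higher in astrocytes, were not in the covariate. Nor were immediate early genes, of which 10 of 10 were lower. Usp2 also missed without KO flowthrough 132 (-0.45, adjusted p = 0.102) or without WT flowthrough 64 (-0.45, adjusted p = 0.103). All flowthrough libraries came from mice without Xist reads in number; without KO 73 and WT 78 the log2 difference was 1.20 for Hlf (adjusted p = 3.1e-04), 0.79 for Tef (7.05e-04) and -0.56 for Usp2 (0.00834).

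Related genes were also compared between the fractions, where 49.2% of the 20997 genes passed (24.8% higher and 24.4% lower). Of the 6 C/EBP genes, 5 were lower in astrocytes, Cebpa by -2.40 ± 0.25, Cebpb by -2.01 ± 0.36, Cebpd by -1.14 ± 0.41, Cebpe by -4.95 ± 0.59 and Cebpg by -0.44 ± 0.14 on the log2 scale, and Ddit3 was higher (0.45 ± 0.12). Of the other E-box driven clock genes 1 of 11 passed, Cry2 (0.91 ± 0.15, adjusted p = 6.42e-04), and 3 of the 4 ROR element driven genes were higher, Npas2 (1.70 ± 0.30), Arntl (0.87 ± 0.17) and Cry1 (0.51 ± 0.17). Of the 12 tested D-box or PAR bZIP targets Rora (1.49 ± 0.16), Pdxk (0.50 ± 0.17) and Cry1 were higher and Alas1 (-1.18 ± 0.15) was lower. Among genes for clock protein stability, Fbxw11 (0.62 ± 0.13) and Fbxl21 (0.72 ± 0.24) were higher and Csnk1e (-0.93 ± 0.10) and Csnk1d (-0.38 ± 0.13) lower.

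The genes most alike to each of the 5 over the 12 libraries were found by the root mean square difference of log2 CPM, each gene centred on its own mean, among 9209 or 9210 named genes with a mean log2 CPM of at least 3. Tef was nearest to Egln2 (0.08), Foxk2 (0.10) and Axl (0.11), against a median of 0.51 over all genes. Hlf was nearest to Fads1 (0.11), Rhobtb2 (0.13) and Rnf187 (0.13), against a median of 0.65. Usp2 was nearest to Syvn1 (0.15), Abhd14b (0.15) and Neu1 (0.16), against a median of 0.54. The nearest genes of Dbp, Pcyox1l, Nupr1 and Fam214a (0.21 to 0.22, median 0.48), and of Nfil3, Nsd3, Kdm6b and Eed (0.24 to 0.26, median 0.56), were farther off. The SD of log2 CPM over the 12 libraries was 0.34 for Dbp, 0.46 for Nfil3, 0.45 for Tef, 0.66 for Hlf and 0.43 for Usp2. A gene that did not vary would lie about that far from each. Genes with a mean log2 CPM below 3, Nfil3 and Arntl among them, could not appear as a nearest gene.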

How the data were processed

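Per the file headers, 1 table was deposited for each of the 12 libraries, listing 41388 genes with their read count, their CPM and their RPKM. The counts, as deposited, were whole. The deposited CPM equals the count per 1000000 of the library total and the deposited RPKM is that CPM per kilobase of exon, within 5.1e-11 and 9.1e-11, as checked on the values. The submitters' processing notes name STAR 2.5.1a, featureCounts 1.4.6-p5 (Subread), bcl2fastq and GRCm38, with no roles, strand setting or annotation release. Total counts were 38.7 to 51.6 M. A count of 3 corresponds to 0.0582 to 0.0775 CPM, which covers counting error only. GENCODE names matched 40254 of the IDs and all 101 list genes.

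The test was that of edgeR 4.0.16, run in R 4.3.3 on the counts (glmQLFit and glmQLFTest, two-sided, TMM, filterByExpr, Benjamini-Hochberg over all genes). KO and WT astrocytes were compared over 8 libraries (18527 genes, 6 residual degrees of freedom). The flowthrough, interaction and fraction tests used all 12 libraries and a mean for each of the 4 groups (20997 genes and 8 degrees of freedom). CPM and RPKM printed as levels are TMM-scaled over the 12 libraries; log2 CPM used a prior count of 2. The routines were tested on simulated data. Alternatives used DESeq2 1.42.0 and limma 3.58.1. The mouse number pairs 2 libraries of the same animal in 4 mice, whose deviations from the group means correlated at -0.00664 (132), 0.155 (56), 0.352 (60) and 0.251 (64) across genes. Replicates are separate mice, and no 2 libraries of a group agreed within sampling noise (chi-square per degree of freedom of at least 26.4).

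The 5 genes and the lists were chosen with earlier results of these data known. Named genes are the 5, Arntl, from the 5 lists of clock, target, C/EBP and stability genes the 4 of lowest p in astrocytes and any that passed, genes whose exons overlap the 5, and the 3 nearest in pattern. Marker and immediate early gene lists are given as counts. One list gene that this rule names is not reported here.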

Additional observations from a re-analysis of the deposited data

How the results depend on the processing

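In KO against WT astrocytes all 85 values of the 5 genes under 17 alternatives kept their direction, and none passed. Dbp had log2 fold changes of -0.72 to -0.47 (adjusted p 0.132 to 0.926), Tef -0.42 to -0.17, Hlf -0.43 to -0.10, Usp2 -0.56 to -0.17 and Nfil3 0.09 to 0.49. The number of genes passing there was 43, against 183 with DESeq2, 111 with limma-voom and 178 with the covariate of microglia, oligodendrocyte and endothelial markers. With 1 library left out it was 12 (without KO 132) to 37 (without KO 73), being 22 or fewer without any library but KO 73. In flowthrough 1 gene passed, against 23 with DESeq2, 0 with limma-voom, 0 with the 4 flowthrough libraries alone, 0 with the mouse as a random replicate block and 0 (without WT flowthrough 56 or 64) to 5 (without KO flowthrough 132) with 1 library left out, where the lone library of a group is assumed to vary like the others. Leaving out 1 library turned the direction of Dbp (-0.43 to 0.06, above 0 without WT 56 or KO 60) and Tef (-0.05 to 0.41, below 0 without KO 60) in flowthrough. For the interaction DESeq2 called 8 genes in place of 0, and Usp2 (0.21) turned to -0.30 with the mouse block, to -0.05 without KO 73 and WT 78 (chosen with earlier results known) and ranged from -0.01 (without WT flowthrough 64) to 0.40 with 1 library left out. Between the fractions 10333 genes passed, against 1430 with the covariate, which put Tef at 0.13, Hlf at 0.33, Usp2 at 0.19 and Nfil3 at 0.15. Dbp turned to -0.08 with library size scaling and ranged from -0.06 to 0.19 with 1 library left out, and Usp2 ranged from -0.64 to -0.45, passing in 10 of 12 such fits. The mouse block moved Nfil3 past the threshold (-0.65) and changed no other call of the 5. The causes were not tested. Each mouse gave 1 astrocyte library, so no block was possible in that comparison. Nfil3 is limited by depth, with a counting error of 10.2% at its lowest count of 96.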

Other observations

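In 3 of the 4 mice with both fractions, Dbp stood at nearly the same level in each. KO 132 had 9.34 CPM in astrocytes and 9.43 CPM in flowthrough, KO 60 had 6.47 and 6.93 CPM, and WT 56 had 11.4 and 10.8 CPM. WT 64 had 12.0 CPM in astrocytes and 7.87 CPM in flowthrough.

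Among the ROR element driven genes, Npas2, a partner of BMAL1, had a larger fitted KO minus WT difference in flowthrough than in astrocytes. It averaged 7.68 ± 4.28 CPM in KO flowthrough and 1.62 ± 0.526 CPM in WT flowthrough (SD, n = 2 each). The 2 KO libraries had 4.65 CPM (KO 132) and 10.7 CPM (KO 60), and the 2 WT libraries 1.25 and 1.99 CPM from 63 and 110 counts. The fitted log2 fold change was 2.24 ± 0.47 (SE; adjusted p = 0.970 from edgeR). In astrocytes it averaged 16.5 ± 4.04 CPM in KO and 7.94 ± 2.54 CPM in WT (n = 4 each), with a fitted value of 1.06 ± 0.26 (adjusted p = 0.302 from edgeR). The interaction was -1.19 ± 0.55 (adjusted p = 0.934) and did not pass. Npas2 was itself higher in astrocytes than in flowthrough (1.70 ± 0.30). KO flowthrough 60 held the most astrocyte marker RNA of the flowthrough libraries (7610 CPM), and also the most neuron and oligodendrocyte marker RNA. In KO flowthrough 132 the astrocyte markers summed to 3730 CPM, between WT flowthrough 64 (2860 CPM) and 56 (4180 CPM). The part of RNA from these cell types in the Npas2 difference was not tested. Nr1d1 had an interaction of -0.81 ± 0.29 (adjusted p = 0.934), with 75.5 ± 15.2 CPM in KO astrocytes and 131 ± 14.2 CPM in WT astrocytes, and 82.0 ± 19.0 CPM in KO flowthrough and 81.1 ± 14.3 CPM in WT flowthrough.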
